A study of Mus musculus with 24 samples.

Results

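The genes described here encode 37 lysosomal enzymes and membrane proteins, chosen by symbol from the 23420 gene symbols counted in every library, and all 37 were found. By role they comprised 8 cysteine proteases, 3 aspartic and serine proteases, 9 glycosidases, 9 lipid and sulfate hydrolases with their activators and lipid-transfer proteins, 6 membrane proteins and channels, and 2 regulators. Their transcripts were measured by RNA-seq of polyadenylated RNA in 24 libraries of mouse cells from 10 groups, to ask how the loss of TET dioxygenases, which oxidize 5-methylcytosine in DNA, or of the glycosylase TDG, which excises oxidized forms of that base, changed gene expression. Th2 cells, the IL-4-secreting type of helper T cell, were grown from naïve CD4+ T cells of spleen and lymph nodes with antibodies to CD3 and CD28, IL-4 and an antibody to IFN-γ, followed by IL-2. Bone marrow-derived macrophages (BMDMs) were the adherent cells grown from bone marrow in L929-conditioned medium with M-CSF, and were left unstimulated (0 h) or given 10 ng/ml of Kdo2-lipid A (KLA), an agonist of Toll-like receptor 4, for 6 h.

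The knockouts were inducible. TDG iKO mice carried Tdg fl/fl, CreERT2 and a Rosa26-H2B-EGFP/GPI-mCherry reporter, and TET iTKO mice carried CreERT2, a Rosa26-YFP reporter and floxed (fl/fl) Tet1, Tet2 and Tet3. The Cre is a tamoxifen-activated form driven by the ubiquitin C promoter, so deletion was not limited to T cells or macrophages. Tamoxifen was given to the knockout mice and to the controls, called WT here, and all mice were of the C57BL/6 strain and 8 to 16 weeks old. Th2 cells gave 4 TDG iKO and 4 WT libraries. The BMDM libraries form 2 cohorts, named Tdg and Tet after the floxed genes, each with 2 libraries of the knockout and 2 of its WT at 0 h and as many at 6 h. No TET iTKO Th2 library was analysed here.

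Assigned counts ranged from 4982950 to 26657729 per library, and the lowest total was that of replicate 2 of the Tdg cohort WT at 0 h. In that library 46.6% of reads were not assigned to a gene and 25.8% aligned to several places. The other BMDM libraries of that cohort had 32.8% to 39.4% and 20.6% to 21.9%. Replicates 3 and 4 of each Th2 genotype differed by a mean chi-square per gene of 1.34 (TDG iKO) and 1.51 (WT), close to counting noise, against 10.9 to 218 for every other pair of replicates. They were therefore counted as 1 sample, which left 3 Th2 samples per genotype. Summed markers of T cells (Cd3e, Cd3d, Cd3g, Cd4, Lck, Thy1 and Gata3) lay between 2900 and 4277 CPM (counts scaled to equal library totals) in Th2 libraries and between 8.12 and 26.7 in BMDMs. Macrophage markers (Csf1r, Emr1, Itgam, Lyz2, Mertk, Fcgr1 and Cd14) summed to 20595 to 27661 in BMDMs and 7.38 to 57.5 in Th2 cells, where Csf1r and Mertk were at 0 in all 8 libraries. Tdg itself was at 0.813 CPM or less in every library, and Tet2 lay at 52.6 and 54.7 in TET iTKO BMDMs at 0 h against 36.6 and 43.1 in WT, so counts per gene, which do not resolve the floxed exons, did not check the genotype labels. Where nothing else is said, tests are Wald tests of DESeq2 with Benjamini-Hochberg adjustment over all genes of the fit, and a gene is said to have risen or fallen when its adjusted p was under 0.05.

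Lysosomes are acidic compartments in which material taken up from outside the cell and worn-out parts of the cell are broken down. Their soluble hydrolases are made in the endoplasmic reticulum, tagged with mannose 6-phosphate in the Golgi, carried to endosomes by mannose 6-phosphate receptors and released as the proton pump V-ATPase acidifies the lumen. Heavily glycosylated membrane proteins such as LAMP1 and LAMP2 line the compartment, and inherited loss of many of these enzymes causes storage disease. Macrophages, which engulf and digest particles, are known for abundant lysosomes. TFEB, a basic helix-loop-helix transcription factor, binds E-boxes of the sequence CACGTG near the start sites of many lysosomal genes when nutrients are scarce.

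Promoter windows of 250 bases before to 50 after the start site were at hand for 33 of the 37 genes, from the RefSeq annotation of GRCm38.p6 (a later build than the mm9 build of the counts). CACGTG, which reads the same on both strands, was present in the windows of 11 of the 33 (33.3%) and in those of 8.09% of all 27025 symbols with a window. The extended form TCACGTGA, which contains it, was present in 4 genes (12.1%) and in 1.12% of all symbols. The stretches around these matches are shown because this element is the known TFEB target of the pathway, and they are the 4 windows with the extended form and that of Lamp1, which held the most matches. Capitals mark the extended form in the first 4 stretches and CACGTG in that of Lamp1, and each stretch is read 5′ to 3′ on the strand of the gene.
Ctsa: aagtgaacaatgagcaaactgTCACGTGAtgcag
Cln3: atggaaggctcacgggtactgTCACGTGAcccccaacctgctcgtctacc
Ctsd: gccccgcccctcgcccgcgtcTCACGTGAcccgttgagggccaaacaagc
Mcoln1: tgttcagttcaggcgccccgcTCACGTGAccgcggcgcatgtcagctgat
Lamp1: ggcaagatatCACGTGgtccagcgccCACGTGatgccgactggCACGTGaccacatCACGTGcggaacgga
On GRCm38.p6 the Ctsa stretch spans chr2:164833739-164833772 on the plus strand, and the match shown begins 13 bases before the start site. A second match of the extended form in that window begins 4 bases after the start site and is not shown. The Cln3 stretch lies at chr7:126583330-126583379 on the minus strand with the match shown 122 bases before the start, and the Ctsd stretch at chr7:142387898-142387947, also on the minus strand, with the match shown 99 bases before it. Mcoln1 has the match shown 46 bases before the start, within chr8:3500452-3500501 on the plus strand. The windows of Cln3, Ctsd and Mcoln1 each hold 1 further CACGTG, which begins 149, 245 and 71 bases before the start in turn, and the first letters of the Mcoln1 stretch are the end of its further match. The 4 matches of Lamp1 begin 61, 45, 28 and 15 bases before the start, within chr8:13159090-13159160 on the plus strand. The other genes with CACGTG in the window were Glb1, Naglu, Gaa, Lgmn, Ctsl and Arsa. A match is a description of the letters in the window, not a bound site.

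Lysosomal transcripts were among the most abundant messages of BMDMs and were low in Th2 cells. The 37 genes together took 8.66% ± 0.0559 (SD, n = 2) of the assigned counts in the Tet cohort WT at 0 h and 7.44% ± 0.312 (n = 2) in the Tdg cohort WT at 0 h, against 0.389% ± 0.0213 (n = 3) in WT Th2 cells. Ctsb, the cysteine protease cathepsin B, ranked between 1 and 4 of all genes by count in every BMDM library and between 612 and 755 in the Th2 libraries. By count, 10 to 13 of the 37 genes were among the top 100 genes of each BMDM library and 0 in each Th2 library. Because longer transcripts give more reads, levels of different genes are compared below in TPM, transcript abundances scaled to equal totals after counts are divided by the summed exon length of the gene.

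**Figure D1:**
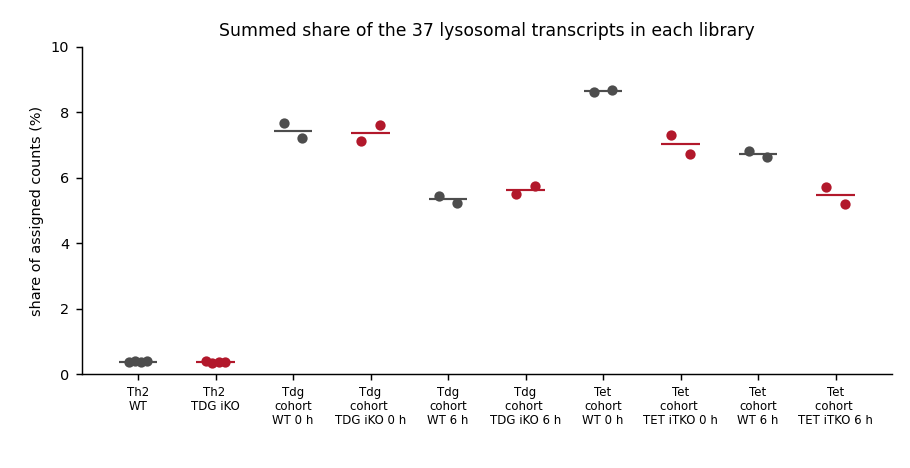
Summed share of the assigned counts taken by the 37 lysosomal genes, in percent, for each of the 24 libraries by group (points: libraries; lines: group means). The Th2 libraries lie between 0.356% and 0.408%, the BMDM libraries at 0 h between 6.74% and 8.70%, and those at 6 h of KLA between 5.20% and 6.81%.

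In WT BMDMs at 0 h the order was led by proteases. In the Tet cohort cathepsin S (Ctss), which trims the invariant chain of MHC class II, stood at 19225 ± 73.6 TPM (SD, n = 2), the aspartic protease cathepsin D (Ctsd) at 13084 ± 337, prosaposin (Psap), the precursor of the sphingolipid activator proteins, at 11628 ± 376, cathepsin L (Ctsl) at 11115 ± 349 and Ctsb at 10205 ± 122. These 5 genes held 69.2% to 74.2% of the summed TPM of the 37 genes in every BMDM library. Cathepsin Z (Ctsz) followed at 3620 ± 168, Lamp1 at 3440 ± 5.13, progranulin (Grn), a secreted and lysosomal growth factor precursor, at 2839 ± 178, legumain (Lgmn), an asparaginyl endopeptidase, at 2776 ± 237 and the tetraspanin Cd63 at 2302 ± 123. At the low end were acid sphingomyelinase (Smpd1) at 29.1 ± 1.78, the arylsulfatases Arsa at 24.7 ± 2.14 and Arsb at 13.2 ± 2.13, and Tfeb at 10.7 ± 0.916. Of the 36 pairs of neighbors in this order, 3 had overlapping library values, namely Grn and Lgmn, Neu1 and Ctsk, and Mcoln1 and Cln3. The order also depended on the length used. With the longest transcript as the gene length, 21 of the 37 genes took another rank in this group. The same change moved 22 in the Tdg cohort WT at 0 h and 27 in WT Th2 cells (Spearman's rho between orders 0.99, 0.99 and 0.96 in turn).

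The Tdg cohort had the same 5 genes on top, with Ctss at 15493 ± 2395 TPM, Ctsd at 10443 ± 1698, Ctsb at 8407 ± 2532, Ctsl at 7953 ± 1339 and Psap at 6767 ± 1393 (SD, n = 2 each). Lamp1 was at 2184 ± 771 and Tfeb at 10.1 ± 2.19. The 2 WT libraries of that cohort at 0 h stood further apart in TPM, for example at 10197 and 6616 for Ctsb. All 37 genes summed to 77940 and 61075 TPM in them, while their share of the assigned counts was 7.66% and 7.22%. That of Ctsb alone was 1.85% and 1.51%. Across the libraries 29 of the 36 neighbor pairs overlapped, among them every pair from Ctsd down to Psap. Within each library the order was nevertheless Ctss, Ctsd, then Ctsb and Ctsl, which changed places, and then Psap. Ordered by role, the cysteine proteases summed to 47666 ± 272 TPM in the Tet cohort WT and 38673 ± 6461 in the Tdg cohort WT, the lipid and sulfate group to 15354 ± 630 and 10262 ± 2106, and the 9 glycosidases to 2431 ± 35.7 and 2094 ± 538.

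Th2 cells had another order. Palmitoyl-protein thioesterase 1 (Ppt1), which removes fatty acids from proteins, was highest at 442 ± 269 TPM (SD, n = 3), before the cholesterol-binding protein Npc2 at 386 ± 106, Psap at 375 ± 103, Lamp1 at 290 ± 22.4 and Ctsd at 259 ± 62.6. Ctsb lay at 155 ± 9.14, Ctsl at 26.5 ± 11.5 and Tfeb at 8.65 ± 2.99. Cd63 stood at 5.58 ± 3.49, cathepsin H (Ctsh) at 0.864 ± 0.454 and cathepsin K (Ctsk), best known from bone-resorbing osteoclasts, at 0.664 ± 0.355. Library values overlapped in 34 of the 36 neighbor pairs of this order, so the ranges across libraries did not resolve most of it.

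**Figure D2:**
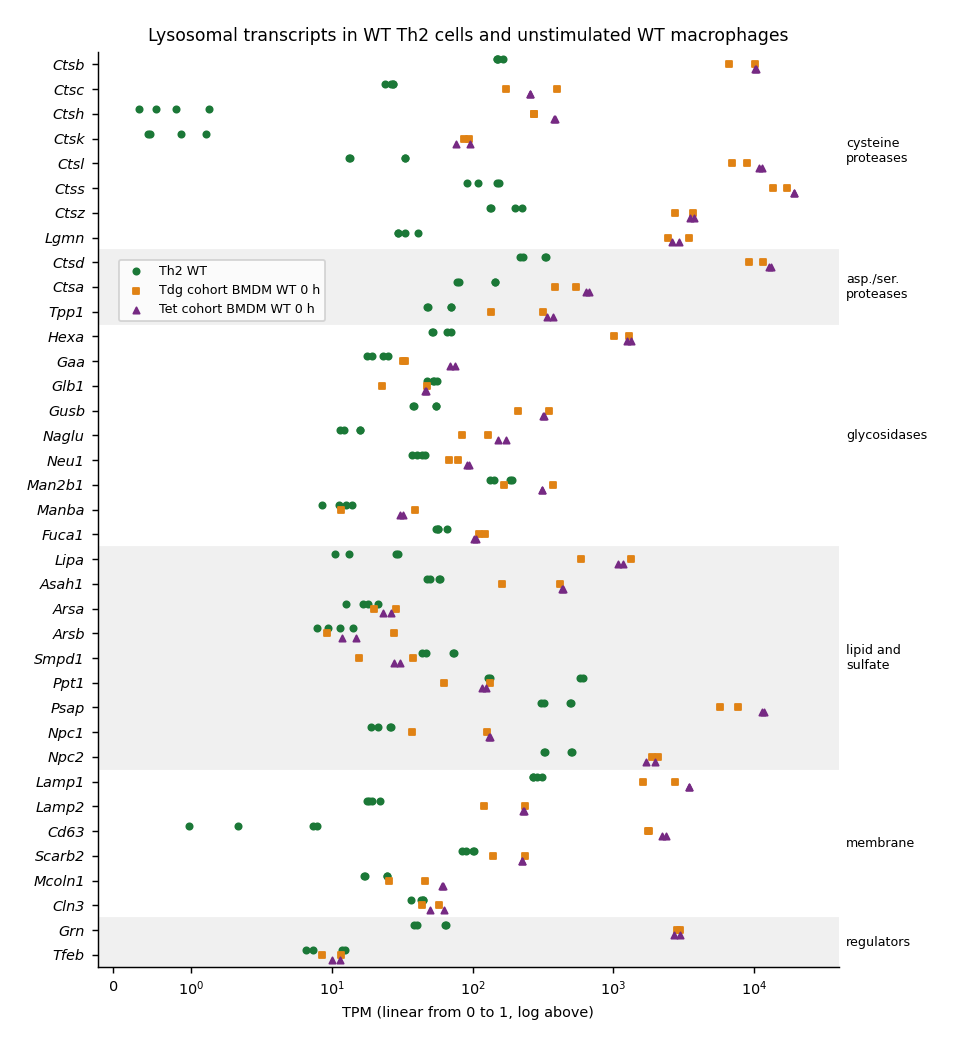
Level of each of the 37 genes in TPM (axis linear from 0 to 1 and logarithmic above) in WT Th2 cells and in WT BMDMs of both cohorts at 0 h (each point is 1 library). Most genes lie far to the right in BMDMs, Ppt1 lies highest in 2 of the 4 Th2 libraries, and Tfeb lies between 6.54 and 12.4 TPM in every library shown.

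The Th2 spread of Ppt1 came from replicates 1 and 2 standing apart from 3 and 4. Ppt1 was at 585 and 609 TPM in WT replicates 1 and 2 and at 129 and 133 in replicates 3 and 4. In the TDG iKO it was at 538 and 590.4 against 187 and 194. In both genotypes the first pair of libraries was thus high and the second low, without overlap. Ctsl followed the same split, at 33.2 and 33.0 against 13.1 and 13.4 TPM in WT and 38.4 and 35.0 against 13.1 and 14.2 in the TDG iKO. Cathepsin A (Ctsa), the serine carboxypeptidase that protects β-galactosidase and neuraminidase, went the other way, at 77.5 and 80.7 against 144 and 145 TPM in WT. Tfeb was at 6.54 and 7.32 in WT replicates 1 and 2 and at 12.4 and 11.7 in replicates 3 and 4, whereas Ctsb overlapped between the sets, at 150.0 and 166 against 148 and 152. Across the 37 genes, 22 were higher and 11 lower in replicates 3 and 4 of WT with no overlap, and 25 higher and 7 lower in those of TDG iKO. Of all genes above 0 TPM in all 4 libraries of a genotype, 46.2% were higher and 35.9% lower without overlap in WT and 48.2% and 29.9% in TDG iKO, so the split ran through most of the genes detected. Both genotypes were present in each set.

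Compared directly, 33 of the 37 genes were lower in WT Th2 cells than in the Tdg cohort WT BMDMs at 0 h, where 24.2% of all genes tested were lower, and 32 were lower than in the Tet cohort WT BMDMs, where 24.3% were. The median log2 difference of the 37 genes was -3.06 and -3.16, against 0.12 and 0.16 over all genes tested. All 8 cysteine proteases, all 3 aspartic and serine proteases and all 6 membrane proteins and channels were lower in both comparisons, as were 8 of the 9 glycosidases. In bulk RNA, fewer cells that express a gene and less of its RNA per cell cannot be told apart.

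The largest differences belonged to Ctsh, Cd63, Ctsl, Ctss and Ctsk. Ctsh was at 0.331 to 1.34 TPM in the 4 WT Th2 libraries (8 to 18 reads each), at 274 and 272 in the Tdg cohort WT and at 377 and 387 in the Tet cohort WT. Its log2 difference was -9.13 ± 0.46 (SE, adjusted p = 8.25e-87) against the Tdg cohort and -9.40 ± 0.46 (adjusted p = 3.91e-92) against the Tet cohort. Cd63 was at 0.968 to 7.78 TPM in Th2 cells against 1757 and 1798 (Tdg cohort) or 2215 and 2389 (Tet cohort) in BMDMs, differences of -9.06 ± 0.56 and -9.21 ± 0.56. Neither gene's Th2 values came near a BMDM value, and Th2 cells held 7 to 23 Cd63 reads per library. Ctsl, at 13.1 to 33.2 TPM in Th2 cells, was at 7005 and 8900 in the Tdg cohort and at 10868 and 11362 in the Tet cohort (log2 -8.87 ± 0.42 and -9.16 ± 0.42). Ctss was at 91.7 to 154 TPM in Th2 cells, and its log2 differences were -7.69 ± 0.28 and -7.80 ± 0.28. Ctsk, with 2 to 18 reads in each WT Th2 library, differed by -7.46 ± 0.49 and -7.16 ± 0.49. Lyz2, the lysozyme gene that defines myeloid cells, was at most at 0.393 CPM in Th2 libraries and at 11963 or more in BMDMs.

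At the other end, Cln3, a membrane protein mutated in Batten disease, was the least changed of the genes that were lower in both comparisons, at -0.92 ± 0.26 and -0.89 ± 0.25. Smpd1, β-galactosidase (Glb1) and Tfeb passed the threshold in neither comparison, and Arsb passed it against the Tdg cohort only (log2 -1.26 ± 0.44 against -0.67 ± 0.43, the difference not being tested). For Tfeb the log2 differences were -0.92 ± 0.42 (adjusted p = 0.0569) and -0.76 ± 0.42 (adjusted p = 0.114). On the TPM scale BMDM levels were 1.22 and 1.35 times the Th2 level for Cln3, and 1.16 and 1.24 times for Tfeb. These are smaller than the DESeq2 differences, so the size of small differences depended on the scale. Ppt1 was the gene that was higher in Th2 cells, by 1.62 ± 0.56 (adjusted p = 0.0106) and 1.44 ± 0.56 (adjusted p = 0.0223), and its normalized counts overlapped between the cell types. The call rested on the sets of Th2 libraries described above: it was kept in 6 of 10 alternatives against the Tdg cohort (adjusted p from 3.92e-14 to 0.158) and in 4 of 10 against the Tet cohort (3.18e-12 to 0.16), and the lowest values were those without Th2 replicates 3 and 4, where the log2 difference was 2.06 and 1.89.

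Loss of TDG left no detectable change in these genes in either cell type. In Th2 cells 0 of the 37 passed the test, as did 0% of all 15826 genes tested (77 genes had an unadjusted p under 0.05), and the median log2 fold change of the 37 genes was 0.00. This fit did not pair the samples by replicate number. With the replicate number as a block, 0 of the 37 genes and 15 over all genes passed. The values of Ctsb were 4147, 3475 and 3467 normalized counts in TDG iKO and 3612, 4060 and 3426 in WT, those of Ctsd 3637, 2895 and 3426 against 2782, 2988 and 4009, and those of Lamp1 3627, 3444 and 3224 against 3314, 3647 and 2911. All 3 genes overlapped between genotypes. Ctsl (419, 361 and 130 against 333, 337 and 126) and Tfeb (199, 177 and 289 against 189, 214 and 327) overlapped too. The genes nearest to the threshold were Cln3 (932, 1016 and 1035 in TDG iKO, 1313, 1090 and 1217 in WT, log2 -0.28 ± 0.16), Arsb (-0.47 ± 0.31) and Ctss (0.32 ± 0.25), none of which passed, each with an adjusted p of 1. Cln3 was also the 1 gene among the 37 whose genotypes did not overlap, where 1.67% of all genes were lower and 1.79% higher without overlap.

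In the Tdg cohort of BMDMs, 0 of the 37 genes passed at 0 h and 0 at 6 h, and 0% of all 15026 genes tested did so at either time (265 and 34 genes had an unadjusted p under 0.05). Ctsb was at 158344 and 169652 normalized counts in TDG iKO at 0 h against 184516 and 173293 in WT, and at 138262 and 157670 against 141589 and 143132 at 6 h. Ctsl was at 63103 and 78214 against 67127 and 76487 at 0 h, and at 45106 and 54624 against 43550 and 45402 at 6 h. Tfeb overlapped at both times, at 224 and 303 against 184 and 364 at 0 h. Ctsd was at 101959 and 109488 against 112015 and 128696 at 0 h, lower in TDG iKO without overlap, and at 78209 and 90959 against 77012 and 81241 at 6 h, where the genotypes overlapped. Lamp1 overlapped at both times, at 19786 and 25590 against 23501 and 20433 at 0 h. The genes nearest to the threshold at 0 h were Cd63 (6074 and 6060 in TDG iKO, 7078 and 10016 in WT, log2 -0.49 ± 0.28), Hexa (-0.34 ± 0.23) and Npc2 (-0.45 ± 0.33), and at 6 h Ctsh (0.22 ± 0.30), Ctsl (0.17 ± 0.26) and Arsb (0.29 ± 0.47). None of them passed, each with an adjusted p of 1. The genotypes did not overlap in 9 genes at 0 h, all lower in TDG iKO (9.76% of all genes were), and in 1 gene at 6 h, which was higher (8.22% of all genes were higher and 7.76% lower).

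A missed threshold does not show that the genotypes were equal. The 95% interval of the log2 fold change lay within -1 to 1 for 30 of the 34 genes with a mean normalized count of at least 50 in Th2 cells, and for 28 at 0 h and 32 at 6 h of the 37 genes in BMDMs, all of which had such a mean. At the widest it reached from -1.19 to 1.29, from -1.28 to 1.34 and from -1.17 to 1.23 in turn. Without replicate 1 of the Tdg cohort WT at 0 h, which leaves the shallowest library as the WT, 2 genes were called at 0 h and 1177 over all genes.

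TET iTKO BMDMs had lower levels of many lysosomal transcripts than the WT of their cohort before stimulation. At 0 h 17 of the 37 genes fell and 1, Ctsc, rose, where 3.12% of all 12200 genes tested fell and 4.38% rose (7.5% in either direction). The median log2 fold change was -0.36 over the 37 genes and 0.01 over all genes tested. The genotypes did not overlap, with TET iTKO lower, in 33 of the 37 genes, against 26.3% of all genes, and with TET iTKO higher in 1, against 27.3%. Abundant genes are called more easily, and among genes with a mean normalized count of at least 1000, 15 of 31 lysosomal genes fell and 1 rose, against 6.13% and 6.39% of all such genes. Together the 37 genes took 7.02% ± 0.399 (SD, n = 2) of the counts in TET iTKO and 8.66% ± 0.0559 in WT.

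The largest decrease was that of Ctsk, at 400.2 and 263 normalized counts in TET iTKO against 721 and 899 in WT. Its log2 fold change was -1.29 ± 0.25 (SE, adjusted p = 1.99e-05), a 2.45-fold lower level. Ctsk lies at chr3:95303208-95313284 on the plus strand of mm9, next to Ctss at chr3:95330708-95360325, which fell by 0.36 on the log2 scale. Glycosidases held 6 of the 17 decreases. β-Glucuronidase (Gusb), which cleaves glucuronic acid from glycosaminoglycans, was at 5409 and 4593 in TET iTKO against 9244 and 9115 in WT (log2 -0.88 ± 0.13, adjusted p = 9.36e-10). Naglu, which acts on heparan sulfate, was at 1871 and 1566 against 2564 and 2908 (-0.67 ± 0.14, adjusted p = 9.97e-05), and the α-mannosidase Man2b1 at 5777 and 5136 against 8546 and 8638 (-0.66 ± 0.12, adjusted p = 3.89e-06). The 2 libraries of each genotype were thus closer to each other than to any library of the other genotype in all 3 enzymes. The β-mannosidase Manba (-0.54), the hexosaminidase subunit Hexa (-0.44) and the fucosidase Fuca1 (-0.37) were the other glycosidases that fell, while Glb1 (-0.33), Gaa (-0.30) and Neu1 (-0.19) did not pass.

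Among proteases, all 3 aspartic and serine enzymes fell: tripeptidyl peptidase Tpp1 by 0.46, Ctsa by 0.44 and Ctsd by 0.33 on the log2 scale. Ctsd was at 171516 and 162374 in TET iTKO and 213366 and 205988 in WT. Of the cysteine proteases, Ctsk, Ctsl, Ctsb and Ctss fell. Ctsl was at 108729 and 92093 against 142662 and 136646 (-0.48 ± 0.11, adjusted p = 0.000613), and Ctsb at 248478 and 223629 against 304801 and 310382 (-0.38 ± 0.10, adjusted p = 0.0042). Cathepsin C (Ctsc), the dipeptidyl peptidase that activates serine proteases of granules, moved in the opposite direction, at 12714 and 14754 against 9514 and 9496 (0.53 ± 0.12, adjusted p = 0.000641). Ctsh (-0.13), Ctsz (-0.21) and Lgmn (-0.31) did not pass.

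Of the lipid and sulfate group, the acid lipase Lipa, which hydrolyzes cholesteryl esters (-0.50 ± 0.12), and Psap (-0.39 ± 0.11) fell, and the other 7 did not pass. Cd63 was at 11196 and 9000 in TET iTKO against 14522 and 15681 in WT (-0.58 ± 0.12, adjusted p = 8.47e-05), and Lamp1 at 40598 and 35433 against 49273 and 49440 (-0.38 ± 0.11, adjusted p = 0.0182). The remaining membrane proteins did not pass, and Lamp2 (-0.08 ± 0.10) and Cln3 (0.02 ± 0.14) were close to 0. So were both regulators, with Tfeb at 404 and 388 in TET iTKO against 362 and 409 in WT (0.04 ± 0.18) and Grn at -0.06 ± 0.09. Of the 11 genes with CACGTG in the promoter window 5 fell (median log2 -0.33), as did 11 of the 22 with a window that lacked it (median -0.36).

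**Figure D3:**
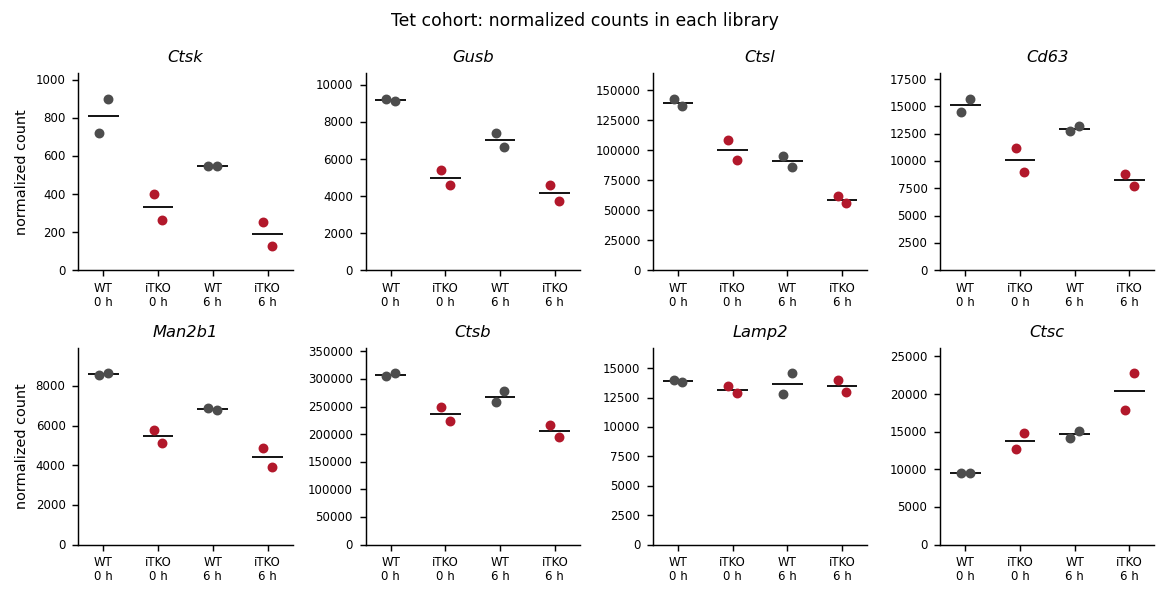
Normalized counts (linear axes from 0) of 8 lysosomal genes in each of the 8 BMDM libraries of the Tet cohort, for WT and TET iTKO at 0 h and 6 h of KLA (points: libraries; lines: means of 2). Ctsk, Gusb, Ctsl, Cd63, Man2b1 and Ctsb lie lower in TET iTKO at both times, Ctsc lies higher, and Lamp2 lies between 12819 and 14568 in all 8 libraries.

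The same comparison after 6 h of KLA gave 15 decreases and 1 increase, against 3.34% and 3.24% of all 11634 genes tested (6.58% together), and a median of -0.34 (0.00 over all genes tested). Among genes with a mean of at least 1000, 14 of 31 lysosomal genes fell and 1 rose, against 7.09% and 3.4% of all such genes. The genotypes did not overlap in 29 genes that were lower and 1 that was higher in TET iTKO, against 23.3% and 24.1% of all genes. Ctsk was at 253 and 129.7 normalized counts in TET iTKO against 549.6 and 549.6 in WT (log2 -1.53 ± 0.26, adjusted p = 5.19e-07) and Gusb at 4614 and 3718 against 7419 and 6636 (-0.76 ± 0.13, adjusted p = 4.61e-07). Cd63 was at 8796 and 7670 against 12726 and 13168 (-0.65 ± 0.12), Man2b1 at 4890 and 3908 against 6890 and 6782 (-0.64 ± 0.12) and Ctsl at 61711 and 55692 against 95357 and 86086 (-0.63 ± 0.11). In each of these 5 genes both TET iTKO libraries lay below both WT libraries. The others that fell were Npc2 (-0.57), Hexa, Fuca1, Ctss, Naglu, Ctsa, Psap, Tpp1, Ctsb (-0.38) and Ctsd (-0.34). Ctsc rose, at 17919 and 22761 against 14193 and 15048 (0.48 ± 0.12, adjusted p = 0.00363). Lamp1 at 39983 and 33096 against 44230 and 47215 (-0.32 ± 0.11, adjusted p = 0.0643) and Tfeb at 343 and 339 against 358 and 347 (-0.05 ± 0.18) did not pass. The 15 genes called at both times, in the same direction, were 83.3% of those called at 0 h and 93.8% of those called at 6 h. The deposited names carry the same animal-like number for the 0 h and 6 h libraries of a replicate, so the times were not treated as independent.

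**Figure D4:**
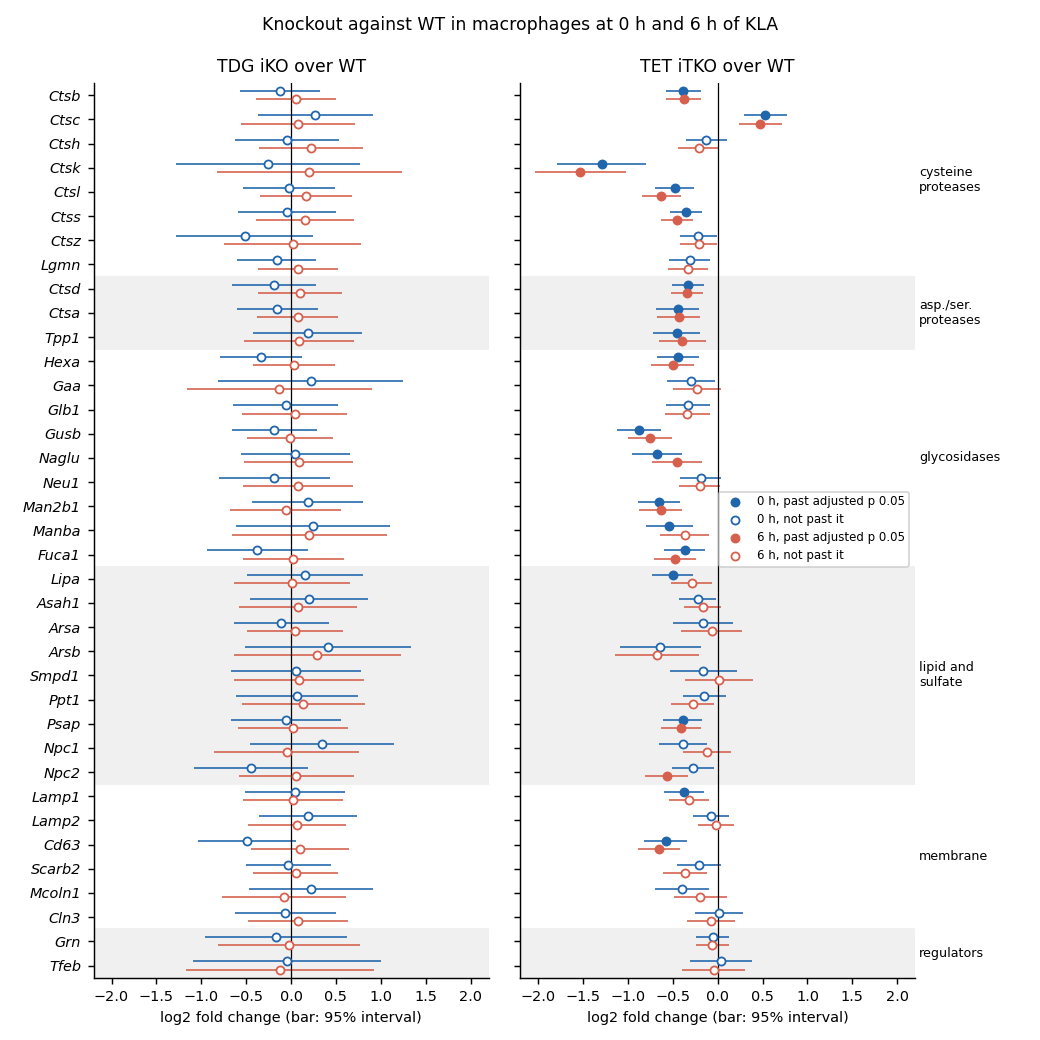
Log2 fold change of each of the 37 genes between knockout and WT BMDMs at 0 h and 6 h of KLA, for TDG iKO and TET iTKO (points: DESeq2 estimates; bars: 95% intervals; filled points: adjusted p under 0.05). The TET iTKO points lie mostly left of 0 at both times, with Ctsc to the right, and no TDG iKO point is filled.

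These counts depended on single libraries. At 0 h fewer genes were called without replicate 2 of the TET iTKO or without either WT replicate. At 6 h fewer were called without TET iTKO replicate 2 or without WT replicate 2. Over all genes, too, fewer were called in each of these settings. With 1 library left out, the median log2 fold change of the 37 genes ran from -0.40 to -0.28 at 0 h. At 6 h it ran from -0.44 to -0.26. Over all genes tested the medians lay between -0.01 and 0.01. Ctsk, Gusb and Man2b1 at 0 h and Ctsl, Ctss, Gusb, Man2b1, Npc2 and Cd63 at 6 h were called in every alternative run, and no called gene changed sign in any of them. Marker sums of neutrophils and of macrophages differed between the genotypes without overlap. The 4 markers of neutrophils and their precursors that were among the counted symbols (S100a8, S100a9, Mpo and Elane) summed to 65.4 to 135 CPM in the TET iTKO libraries and 28.1 to 51.9 in the WT. Within single groups of the Tdg cohort at 0 h this sum ranged from 29.5 to 482 (TDG iKO) and from 37.1 to 155 (WT). The 7 macrophage markers summed to 21850 to 22264 in TET iTKO and 24230 to 26428 in WT. Lyz2 alone made up 13177 to 19058 CPM of that sum in the Tet cohort. The part of these marker differences in the result was not tested.

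The effects of TET and TDG loss, each against the WT of its own cohort, were compared in a single fit of all BMDM libraries. None of the 37 genes passed at 0 h, where 0.355% of all genes did, or at 6 h, where 0.0765% did, by DESeq2 or by edgeR. At an unadjusted p under 0.05 there were 4 genes at 0 h and 11 at 6 h. The median difference was -0.26 at 0 h and -0.40 at 6 h, against -0.01 and 0.01 over all genes tested. The genes nearest to the threshold at 0 h were Gusb (-0.68 ± 0.23, adjusted p = 0.265), Man2b1 (-0.84 ± 0.32, adjusted p = 0.49) and Naglu (-0.71 ± 0.32, adjusted p = 0.726), and at 6 h Ctsl (-0.78 ± 0.24, adjusted p = 0.374), Gusb (-0.73 ± 0.23, adjusted p = 0.374) and Cd63 (-0.74 ± 0.28, adjusted p = 0.796). A difference between the knockouts was therefore not shown for any of these genes. Standard errors were larger in the Tdg cohort (median 0.31) than in the Tet cohort (median 0.12). Without replicate 1 of the Tdg cohort WT at 0 h, the median difference of the 37 genes at 0 h was -0.29, against -0.07 over all genes tested.

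After KLA, lysosomal transcripts that fell outnumbered those that rose in the Tet cohort, and few passed the test in the Tdg cohort. In the Tet cohort WT 12 of the 37 genes fell and 1 rose between 0 h and 6 h, where 11.1% of all 11917 genes tested fell and 13.1% rose, and in TET iTKO 13 fell and 2 rose, where 11.6% of 11352 fell and 12.8% rose. In the Tdg cohort WT 2 fell and 1 rose (3.32% and 5.29% of 11633), and in TDG iKO 1 fell and 0 rose (2.81% and 4.27%), shares near those of all genes. In either direction 24.1%, 24.4%, 8.6% and 7.08% of all genes passed in these 4 comparisons. Among genes with a mean of at least 1000, 10 of 31 lysosomal genes fell in the Tet cohort WT and 10 of 31 in TET iTKO (14.7% and 15.9% of all such genes), and 2 of 28 in the Tdg cohort WT and 1 of 28 in TDG iKO (4.03% and 3.5%). The median log2 fold change of the 37 genes was -0.22, -0.24, -0.38 and -0.24 in the same order, against -0.01, -0.01, -0.03 and 0.00 over all genes tested. The summed share of counts went from 8.66% to 6.73% ± 0.111 in the Tet cohort WT, from 7.02% to 5.46% ± 0.375 in TET iTKO, from 7.44% to 5.35% ± 0.156 in the Tdg cohort WT and from 7.37% ± 0.348 to 5.63% ± 0.174 in TDG iKO (SD, n = 2 each).

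Ctsc rose in both genotypes of the Tet cohort and in the Tdg cohort WT. Its normalized counts were 9514 and 9496 at 0 h and 14193 and 15048 at 6 h in the Tet cohort WT (log2 0.62 ± 0.12, adjusted p = 5.65e-06). In TET iTKO they were 12714 and 14754 and then 17919 and 22761 (0.57 ± 0.12, adjusted p = 4.38e-05). The Tdg cohort WT had 8860 and 5518 and then 15258 and 15021 (1.07 ± 0.32, adjusted p = 0.0153). In all 3 cases both 6 h libraries lay above both 0 h libraries, as they did in TDG iKO, where the change of 0.88 ± 0.32 did not pass (adjusted p = 0.0789). Ctsz rose in TET iTKO, from 30771 and 26416 to 35700 and 33000 (0.27 ± 0.11, adjusted p = 0.0484), and was at 0.26 ± 0.11 (adjusted p = 0.0532) in the Tet cohort WT. The call of Ctsz in TET iTKO was kept in 5 of 10 alternatives.

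Lipa fell most in the Tet cohort WT, from 20409 and 22210 to 10590 and 11622 (-0.94 ± 0.12, adjusted p = 1.61e-14), and was the gene that fell in TDG iKO, from 13262 and 14388 to 7568 and 5832 (-1.05 ± 0.33, adjusted p = 0.0261). In TET iTKO it went from 15770 and 14378 to 9941 and 8219 (-0.73 ± 0.12), and in the Tdg cohort WT it was at -0.90 ± 0.33 (adjusted p = 0.0678). The log2 change of this lipase was thus at or below -0.73 in all 4 comparisons, and both 6 h libraries lay below both 0 h libraries in each. Manba went from 1429 and 1358 to 830 and 728 in the Tet cohort WT (-0.84 ± 0.14) and from 974 and 943 to 616 and 593 in TET iTKO (-0.66 ± 0.14). Ctsl went from 142662 and 136646 to 95357 and 86086 in WT (-0.62 ± 0.11) and from 108729 and 92093 to 61711 and 55692 in TET iTKO (-0.77 ± 0.11). Both had no overlap between times in either genotype. Naglu fell from 2564 and 2908 to 1612 and 1941 in WT (-0.62 ± 0.14), and Arsb from 403 and 321 to 235 and 236 in WT (-0.62 ± 0.23) and from 239 and 226 to 173 and 124 in TET iTKO (-0.65 ± 0.24). Ctsk fell in TET iTKO, from 400.2 and 263 to 253 and 129.7 (-0.80 ± 0.26, adjusted p = 0.0121), and was at -0.56 ± 0.25 (adjusted p = 0.0919) in WT.

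In the Tdg cohort WT, Fuca1 fell from 1538 and 2016 to 1097 and 890.5 (-0.84 ± 0.29, adjusted p = 0.0422) and Lgmn from 30559 and 31531 to 21199 and 18543 (-0.64 ± 0.23, adjusted p = 0.0495). Both fell in the Tet cohort WT too, Fuca1 by 0.35 and Lgmn by 0.61 on the log2 scale. The others that fell in the Tet cohort WT were Npc1, the cholesterol exporter of the lysosomal membrane (-0.61), Gusb, Man2b1, Ctsd (-0.32) and acid ceramidase (Asah1), and in TET iTKO Lgmn, Fuca1, Ppt1, Naglu, Npc2, Scarb2, the receptor that delivers β-glucocerebrosidase, Ctsd and Man2b1. Ctsb did not pass in any of the 4 comparisons, with log2 changes of -0.20 ± 0.10 in the Tet cohort WT, -0.20 ± 0.10 in TET iTKO, -0.33 ± 0.23 in the Tdg cohort WT and -0.15 ± 0.23 in TDG iKO. Nor did Lamp1 (-0.11, -0.06, -0.02 and -0.04) or Tfeb (-0.13, -0.21, -0.19 and -0.27). By sign, 28 genes were below 0 in all 4 comparisons, Ctsc was above 0 in all 4, and 8 were mixed (Ctsh, Ctsz, Gaa, Neu1, Npc2, Lamp2, Mcoln1 and Cln3). Between the WT of both cohorts, which share no library, 31 of 37 genes had the same sign, with Pearson's r = 0.79 and Spearman's rho = 0.75 across these genes, which are not independent replicates. The shares of all genes with such signs, and the correlations over all genes, were not computed.

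**Figure D5:**
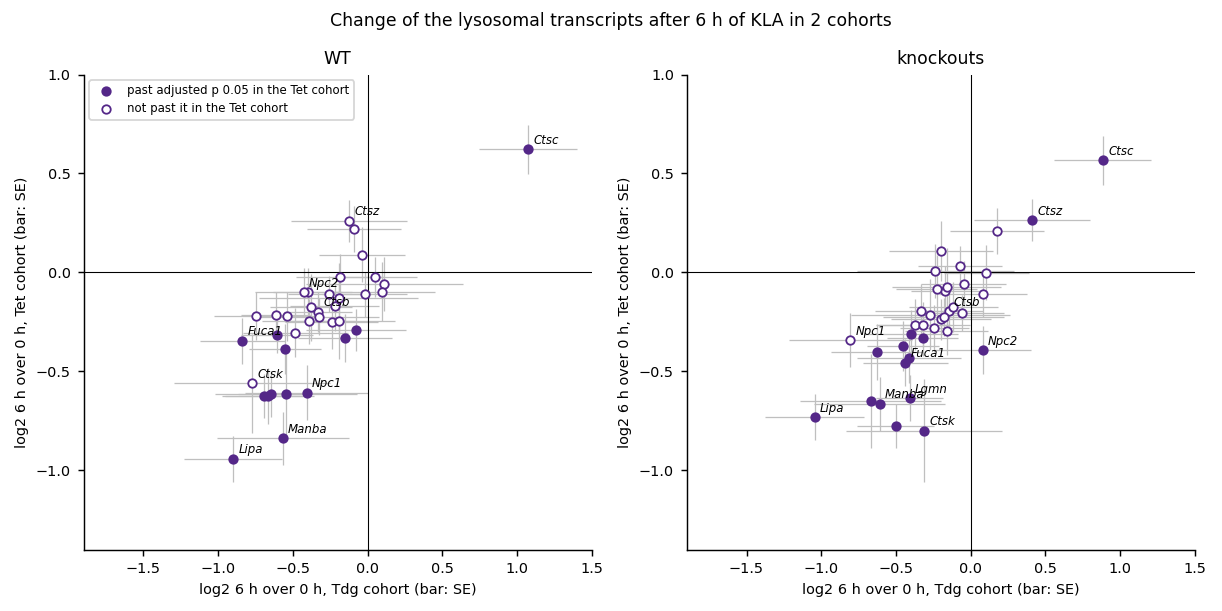
Log2 fold change after 6 h of KLA of each of the 37 genes in the Tdg cohort (horizontal axis) against the Tet cohort (vertical axis), for WT and for the knockouts (bars: SE; filled points: adjusted p under 0.05 in the Tet cohort). Ctsc lies at the upper right and Lipa toward the lower left in both panels, and the horizontal bars are longer than the vertical ones.

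The 0 h and 6 h libraries of a Tet cohort replicate share a number in their deposited names. With the replicate number nested in genotype as a block, 22 genes were called in WT in place of 13 and 24 in TET iTKO in place of 15. Over all genes the counts were 3077 in place of 2874 and 3017 in place of 2771. Single libraries moved these counts too. Fewer of the 37 genes, and fewer over all genes, were called when any 1 library of the Tet cohort WT was left out. The same held in TET iTKO without replicate 1 at 0 h or replicate 2 at 6 h. In the Tdg cohort WT more were called without replicate 1 at 0 h, also over all genes, and fewer without any other library. In TDG iKO Lipa was no longer called without either replicate at 0 h or without replicate 2 at 6 h. edgeR called 0 genes in the Tdg cohort WT and 0 in TDG iKO, where the counts at an unadjusted p under 0.05 by DESeq2 were 11 and 3. Tested as an interaction, the difference of the KLA effect between knockout and WT passed for 0 of the 37 genes with TDG iKO (0% of all genes) and for 0 with TET iTKO (0.426% of all genes), with 0 at an unadjusted p under 0.05 in either. In the TET iTKO interaction the 95% intervals of all 37 genes lay within -1 to 1 on the log2 scale, and in the TDG iKO interaction those of 16 did.

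Other genes of the compartment, taken from lists that hold none of the 37, moved in part the same way, where 3.12% of all genes tested fell and 4.38% rose at 0 h and 3.34% fell and 3.24% rose at 6 h. In TET iTKO BMDMs at 0 h, 6 of the 17 V-ATPase subunits tested fell and 0 rose (median log2 -0.26), led by Atp6v0d2, a subunit enriched in osteoclasts and macrophages (-1.36 ± 0.27, adjusted p = 2.12e-05). Of 26 other hydrolases 9 fell and 0 rose, among them the hyaluronidase Hyal1 (-1.14 ± 0.22), the tartrate-resistant phosphatase Acp5 (-0.83 ± 0.16) and the galactosylceramidase Galc (-0.77 ± 0.13). Of 22 other membrane proteins 4 fell and 0 rose, among them Cd68, a macrophage glycoprotein of the LAMP family (-0.63 ± 0.14). At 6 h the decreases were 3 of 17, 7 of 26 and 4 of 21. Of 13 genes of mannose 6-phosphate sorting at 0 h, the cation-dependent receptor M6pr rose (0.32 ± 0.10, adjusted p = 0.0323) and 3 fell, including the larger receptor Igf2r (-0.40 ± 0.13, adjusted p = 0.033), and at 6 h 0 passed. The protease inhibitor Cst7, cystatin F, which acts on cathepsins C and L, rose at both times (1.60 ± 0.29 and 1.57 ± 0.28), while Stfa1 and Stfa3, which also passed at 0 h and 6 h respectively, had mean normalized counts of 9.04 and 15.2. Among 20 genes of TFEB relatives and lysosomal mTORC1 control, 1 fell at 0 h (Rragc) and 2 at 6 h (Lamtor1 and Lamtor4).

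After KLA these lists moved in both directions. M6pr rose in all 4 comparisons, by 0.68 (TET iTKO) to 0.97 (TDG iKO) on the log2 scale, whereas Igf2r passed in none. No other gene of the 13 for sorting rose. In the Tet cohort WT 5 of them fell (Gnptg, Nagpa, Gga2, Cln6 and Cln8), in TET iTKO 3, in the Tdg cohort WT 1 and in TDG iKO 0. Tfec, a macrophage-restricted relative of TFEB, rose by 0.94 (Tet cohort WT) to 1.81 (Tdg cohort WT). Of its list, 4 of 20 genes rose and 5 fell in the Tet cohort WT (Flcn, Fnip2, Rragc, Rragd and Lamtor4 fell). In the Tdg cohort WT 1 rose and 0 fell. In TET iTKO 4 of 19 rose and 3 fell, and in TDG iKO 1 of 20 rose and 1 fell. Of all genes tested, 11.6% fell and 12.8% rose in TET iTKO, and 2.81% and 4.27% in TDG iKO. The heparan sulfatase Sgsh had log2 changes from -1.94 (TET iTKO) to -2.28 (TDG iKO) and Hyal1 from -2.02 (Tdg cohort WT) to -2.58 (TET iTKO), and all of these passed. Slc15a3, a peptide and histidine transporter of the lysosomal membrane, rose in all 4 as well, by 0.93 (TET iTKO) to 1.56 (TDG iKO). In the Tet cohort WT, 10 of 26 other hydrolases fell and 1 (Acp2) rose, 5 of 17 V-ATPase subunits fell and 2 rose, and 7 of 21 other membrane proteins fell and 4 rose, where 11.1% of all genes tested fell and 13.1% rose. In the Tdg cohort WT, 4 of 26 hydrolases fell and 0 rose, 2 of 17 V-ATPase subunits fell and 0 rose, and 2 of 22 membrane proteins fell and 1 rose, where 3.32% of all genes fell and 5.29% rose.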

How the data were processed

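RNA-seq of polyadenylated RNA (directional libraries) was available for 24 libraries. The authors aligned the reads to mm9 with HISAT2 and counted them per gene with HTSeq. The deposited values were raw counts, whole numbers with no normalization, for 23420 symbols. How strand was handled, which annotation was counted and which versions were run is not given in the sources used here, so reads of overlapping or antisense genes may be shared. Groups and replicate numbers came from the labels, and nothing deposited states for every library which animal it came from, so p-values may in part measure technical spread.

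DESeq2 1.42.0 in R 4.3.3 was run on all genes with default settings and an adjusted p threshold of 0.05, the test and threshold stated for the study (DESeq2 1.30.0 there). The Th2 libraries, each BMDM cohort, all 16 BMDM libraries, and the WT groups at 0 h with WT Th2 formed separate fits. Th2 replicates 3 and 4 were summed. TPM used exon lengths of GENCODE vM1 on mm9 (37 of 37 genes; Tfeb by its older symbol). At depths of 4982950 to 26657729 counts the precision was set by the 2 or 3 samples per group, and intervals are 95% intervals of the fit. Counts of reads have no molecular identifiers.

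Same-numbered Th2 samples deviated together (r = 0.51, 0.73 and 0.92 across genes). The replicate numbers were therefore taken to pair them in an alternative, the replicate block. The main Th2 fit and its intervals held genotype only and did not use this pairing. The block left the count of lysosomal genes at 0 and called 15 over all genes. With replicates 3 and 4 also entered separately, as if independent, it called 0 lysosomal genes and 87 over all genes. The Tet cohort 0 h and 6 h pairs share a number in the deposited names, taken to be the mouse (r = 0.50 in WT and 0.39 in TET iTKO).

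Alternatives were edgeR 4.0.16 with TMM factors, DESeq2 with TMM factors, dropping genes without 10 counts in 2 samples, the replicate blocks, a fit of only the groups compared, separate Th2 replicates 3 and 4, and leaving out each replicate. For TPM, the longest transcript of a gene was used as its length in an alternative. Every called member was named or counted by role, with library values for up to 5 called in each direction of largest change at a mean normalized count of at least 50, besides Ctsb, Ctsd, Ctsl, Lamp1 and Tfeb, and where nothing was called the 3 smallest p-values were given. The members and all lists were chosen with earlier results of these data known. A further list of cell type markers is not reported here.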

Additional observations from a re-analysis of the deposited data

How the results depend on the processing

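Between cell types the counts kept within 1.5 times in every alternative run (31 to 35 genes without single replicates), and by every tool 0 genes were called for TDG loss in Th2 cells and in BMDMs at 6 h. Leaving out 1 replicate at a time gave 0 to 2 genes for TDG loss at 0 h, 3 to 18 for TET loss at 0 h and 7 to 21 at 6 h. For KLA it gave 0 to 7 in the Tdg cohort WT, 0 to 1 in TDG iKO, 7 to 10 in the Tet cohort WT and 7 to 19 in TET iTKO, and for the TET effect minus the TDG effect 0 to 8 at 0 h. With 1 sample left in an arm, that sample was assumed to vary like the others.

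edgeR called 0 genes for KLA in the Tdg cohort WT and 0 in TDG iKO, and a fit of only the groups compared called 1 and 2. Over all genes, edgeR called 1637 (0 h) and 1407 (6 h) for TET loss in place of 915 and 765, and 25 and 22 of the lysosomal genes. The replicate block called 8 and 2 genes for KLA in the Tdg cohort WT and TDG iKO, and 2 at 0 h and 4 at 6 h for the TET effect minus the TDG effect. Nested in genotype, the replicate block called 10 and 2 genes for KLA in the Tdg cohort WT and TDG iKO (1822 and 1312 over all genes). In the Tet cohort WT and TET iTKO the nested block called 22 and 24 (3077 and 3017 over all genes). It moved no other count by over 1.5 times. Between Tet cohort genotypes same-numbered samples did not deviate together (r = 0.02 at 0 h and 0.06 at 6 h). In the Tdg cohort they did, between genotypes (r = 0.31 at 0 h and 0.82 at 6 h) and between times (0.36 in WT and 0.82 in TDG iKO), but with 2 pairs and no label for what a number marks, the pairing there is a hint from the data, not the design. Over all genes the replicate block called 15 in place of 0 for TDG loss in Th2 cells, 1809 in place of 1001 and 1375 in place of 824 for KLA in the Tdg cohort WT and TDG iKO, and 186 in place of 39 (0 h) and 101 in place of 10 (6 h) for the TET effect minus the TDG effect, where edgeR called 26 and 1. For the TET iTKO interaction edgeR called 270 and the nested block 225 in place of 52. The cause of these changes was not tested. Arsb reversed in the Tdg cohort at 6 h, to -0.042 without WT replicate 2 and -0.031 without TDG iKO replicate 1 (highest 0.72 without 1 replicate), and no called gene reversed. TMM factors shifted the log2 differences between Th2 cells and Tet cohort BMDMs by -0.12 for all genes. Depth limited Ctsh and Ctsk in Th2 cells, at 18 reads or fewer per library, and also Cd63, whose few reads in the WT Th2 libraries are given above.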
